A study of Bubalus bubalis with 12 samples.

Results

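The glutathione S-transferases are the enzymes that join glutathione, the main thiol of the cell, to reactive and foreign molecules. The genes followed here were 10 named members of the family: LOC112580184, GSTA1, GSTP1, GSTM3, GSTO1, GSTK1, GSTZ1, MGST1, MGST2 and MGST3. They were found in the deposited expression table by their symbol, and 9 of the 10 had a row among 34037 genes. GSTO1, the omega class member, was not analysed here. All 9 genes were above 0 in every animal and were among the 12760 genes tested. Among these 9 genes, MGST3 had by far the highest level. Transferase genes listed only under a LOC number, other than LOC112580184, were not analysed here, so that the order of levels holds for the named genes alone. None of the 9 genes passed the test between the feeding groups. The widest differences from animal to animal on the log2 scale were those of the alpha class genes LOC112580184 and GSTA1. For LOC112580184 they rested largely on a single treated animal.

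The samples were frozen pieces of the ruminal wall of 12 adult Italian Mediterranean dairy buffaloes, with 1 library of total RNA from each animal. The control group of 6 buffaloes was fed a total mixed ration (TMR), and the treated group of 6 received TMR in which green ryegrass made up about 30% of the diet. The treated ration also contained less corn silage, alfalfa hay and concentrate, more corn meal, and no soybean meal, calcium carbonate or added vitamins. The effect of adding ryegrass and that of these other changes cannot be told apart. The comparison asks which genes of the ruminal wall differ with green feed.

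Levels are given as FPKM, which are fragments per kilobase of gene and scaled to the fragments counted on genes in that animal. Between 10531541 and 12948372 fragments were counted per animal, and the medians were 12414349 (control) and 12031597.5 (treated). Markers of squamous epithelium, the lining of the rumen, summed to between 5006 and 8487 FPKM in control animals and between 5414 and 9259 FPKM in treated ones, with all 14 of the markers found in the table tested. The smooth muscle markers summed to 29.7 to 51.6 FPKM in control animals and 16.9 to 42.3 FPKM in treated ones, and the fibroblast markers to 46.5 to 283 FPKM and 19.8 to 184 FPKM. Endothelial markers summed to between 7.12 and 37.2 FPKM and immune cell markers to between 32.9 and 67.8 FPKM over the 12 animals, with CD79B at 0 in all of them. Markers of liver, an organ rich in alpha class transferases, summed to at most 1.82 FPKM. In such pieces, fewer cells of a type and less RNA per cell cannot be told apart.

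Glutathione S-transferases fall into families of separate origin. The cytosolic enzymes are grouped into classes such as alpha, mu, pi, omega and zeta, the kappa enzyme is found in mitochondria and peroxisomes, and the membrane-bound enzymes belong to the MAPEG family. The conjugates are exported by ABC transporters. In several species, many of these genes are induced by the transcription factor NFE2L2 (NRF2) or by the aryl hydrocarbon receptor, which respond to electrophiles and to aromatic compounds such as those of plants.

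The 9 genes were spread over a wide range of levels in the ruminal wall. The geometric mean over the 12 animals was 600 FPKM for MGST3, 52.6 FPKM for GSTM3, 42.2 FPKM for GSTK1, 24.0 FPKM for MGST1 and 12.3 FPKM for LOC112580184. It was 7.30 FPKM for GSTZ1, 7.25 FPKM for MGST2, 5.32 FPKM for GSTA1 and 2.82 FPKM for GSTP1. MGST3, a MAPEG enzyme of the endoplasmic reticulum with glutathione transferase and peroxidase activity, made up between 70.0% and 83.7% of the summed FPKM of the 9 genes in each animal. Among all genes tested, 134 had a higher mean log2 level than MGST3. GSTP1, the pi class enzyme and a common transferase of many human epithelia, was the lowest member, with 10 to 53 fragments per animal.

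Neighbours in this order were compared within each animal by a two-sided exact sign-flip permutation test of the log2 ratio of FPKM, adjusted by the Benjamini-Hochberg method over the 8 pairs. MGST3 was 11.4 times the level of GSTM3 and was higher in 12 of 12 animals (exact test, adjusted p = 0.00391). GSTM3 was 1.25 times the level of GSTK1 in the geometric mean and higher in 10 of 12 animals (exact test, adjusted p = 0.0326). GSTK1 was 1.76 times the level of MGST1, also in 10 of 12 animals (exact test, adjusted p = 0.0156). MGST1 was 1.96 times the level of LOC112580184 and higher in 9 of 12 animals (exact test, adjusted p = 0.0352). From LOC112580184 downwards, no pair of neighbours differed beyond the spread between animals, with adjusted p-values from the exact test between 0.243 and 0.943. Within a single group the smallest p-value that the exact test allows is 0.03125, and 0 of 8 pairs passed after adjustment. With 1 animal left out, the difference between MGST1 and LOC112580184 was lost without control animals 1, 4 or 6 or treated animals 1, 4 or 6 (exact test, adjusted p up to 0.0703), and that between GSTM3 and GSTK1 without control animals 4 or 6 or treated animals 1 or 6 (exact test, adjusted p = 0.0651).

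**Figure D1:**
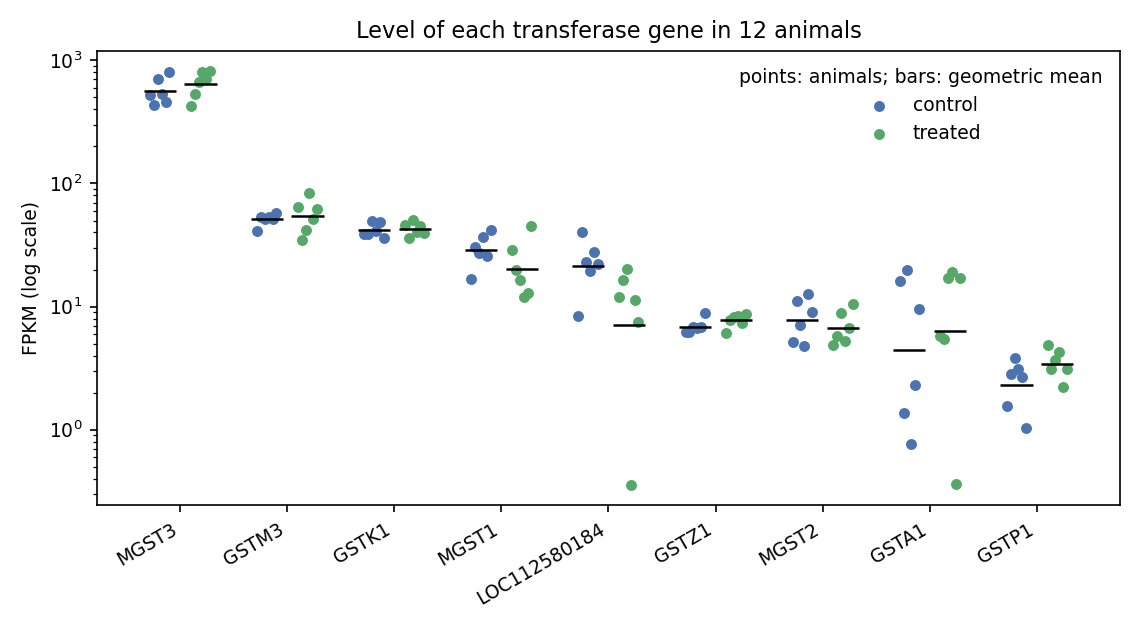
The plot gives the FPKM of the 9 genes on a log axis, with 1 point for each of the 6 control (blue) and 6 treated (green) animals and a bar at the geometric mean of each group. MGST3 lies at 423 FPKM or more in all animals, GSTK1 and GSTZ1 are tightly grouped, and LOC112580184 and GSTA1 reach down to 0.357 and 0.365 FPKM in single animals.

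The members also differed in how evenly they were expressed. GSTK1 and GSTZ1 had a within-group SD of 0.18 and 0.19 on the log2 scale, at percentiles 9.69 and 11.1 of all genes tested. The SDs of MGST3 (0.36) and GSTM3 (0.34) were close to the median of all genes tested, which was also 0.36. MGST2 (0.51), GSTP1 (0.57) and MGST1 (0.62) varied more. The most variable members were LOC112580184, with an SD of 1.61 at percentile 98.5, and GSTA1, with an SD of 2.07 at percentile 99.1. Thus 2 genes of the same class were more variable than nearly all genes of the tissue that were tested.

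Treated and control animals were compared with limma on log2(FPKM + 0.01), on which scale all log2 fold changes are given as treated minus control. With Benjamini-Hochberg adjustment over all 12760 genes, no gene had an adjusted limma p-value below 0.05 (0.0%). At a nominal p of 0.05, 162 genes passed in limma (1.27%) and 224 in the exact permutation test (1.76%). Of those in limma, 102 had a higher level with green feed (0.799%) and 60 a lower one (0.47%). Where no gene differs, a share of about 0.05 of all genes is expected to pass this threshold, and the shares of both tests were smaller. Among the members, 0 of 9 had a nominal or an adjusted p-value below 0.05 in limma or in the exact permutation test, and the adjusted limma p-value of each was 1.00. The groups did not overlap for 7 of all genes tested (0.0549%) and for 0 of the 9 members. The log2 fold change was above 0 for 6 members and below 0 for 3, with a median of 0.08, beside a median of 0.0051 over all genes tested.

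**Figure D2:**
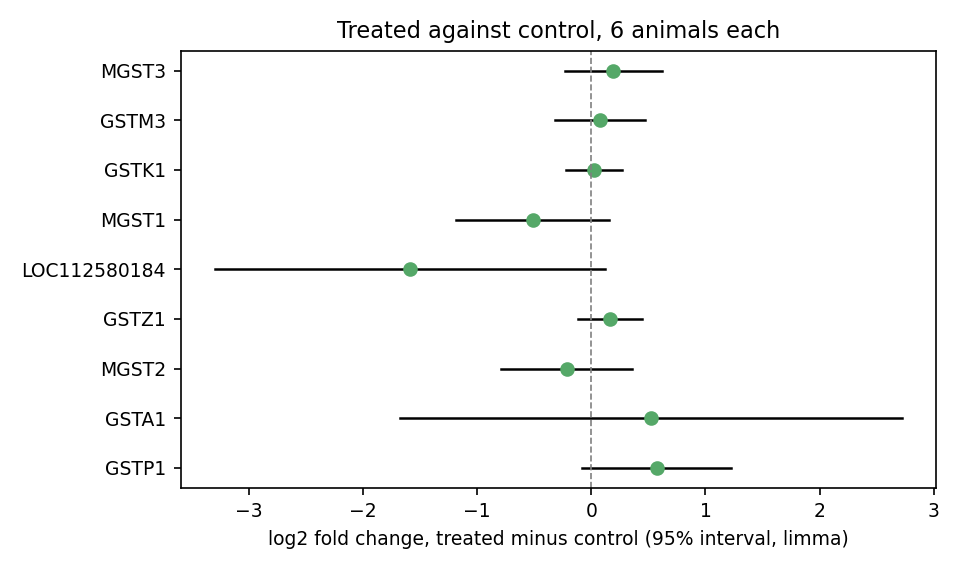
The plot shows the log2 fold change of each member, treated minus control, with its 95% interval from limma (6 animals per group). Every interval includes 0, and it is narrowest for GSTK1 (-0.22 to 0.27) and widest for GSTA1 (-1.68 to 2.72).

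The alpha class enzymes conjugate electrophiles and also reduce lipid hydroperoxides with glutathione. Both LOC112580184 and GSTA1 are of this class. The row GSTA1 has gene identifier 102413809, while LOC112580184 has identifier 112580184 and is the gene that the study calls glutathione S-transferase A1. The study picked it out in these same animals by the NOISeq probability and not by the nominal p-value of its count model, so that its direction here is not independent evidence. Genes found by NOISeq alone that the study checked by reverse-transcription qPCR conflicted with its RNA-seq. The study therefore proposes that its count model was the more reliable. LOC112580184 is not among the genes named as checked. The lengths behind their FPKM were 925 bp and 928 bp. Fragments that fit near-identical copies equally well can be dropped at the mapping quality that was asked for, and the values of both genes are therefore uncertain.

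LOC112580184 was measured at 8.40, 40.3, 23.1, 19.5, 27.8 and 21.999 FPKM in control animals 1 to 6 and at 12.1, 16.5, 20.2, 0.357, 11.4 and 7.45 FPKM in treated animals 1 to 6. All 6 treated animals were below the control median of 22.5 FPKM, and 2 of them, treated animals 4 and 6, were below every control animal, yet control animal 1 lay among the treated values. The control mean was 23.5 ± 10.5 FPKM (SD, n = 6) and the treated mean 11.3 ± 6.95 FPKM (SD, n = 6). The log2 fold change was -1.59 ± 0.80 (SE), with a 95% interval from -3.30 to 0.12 in limma. The two-sided exact permutation test over the 924 assignments of the animals gave p = 0.0563, beside a nominal limma p of 0.0658 and an adjusted limma p of 1.00. The difference therefore did not exceed the spread between animals at the 0.05 level.

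Treated animal 4 had only 4 fragments of LOC112580184, which gives an exact Poisson interval of 0.0973 to 0.914 FPKM that covers counting error alone. Without this animal the log2 fold change was -0.74 ± 0.35 (SE), still short of the nominal threshold. The nominal limma threshold of 0.05 was passed when control animal 1 (log2 fold change -1.86), treated animal 2 (-1.83) or treated animal 3 (-1.89) was left out, and was not passed in the other 9 such runs. It was also passed with a pseudocount of 1 (-1.25), with voom on fragments (-1.56), with a block for the replicate number (-1.59) and with the score of smooth muscle and fibroblast markers as a covariate (-2.38 ± 0.74, SE). In these models 1.26%, 1.14%, 2.55% and 2.57% of all genes tested passed the same threshold. With the squamous epithelial score as a covariate 1.68% of all genes passed, but no member did. The adjusted limma p-value of LOC112580184 was 1.00 in each of these models. The nominal threshold was not passed with a pseudocount of 0.1, with no filter or with at least 0.1 FPKM in 6 animals. It was also not passed with TMM scaling, median ratio scaling or robust limma. In these other settings the nominal limma p was between 0.0611 and 0.0703.

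GSTA1 was spread even more widely, and in both groups. Its level was 16.3, 1.36, 19.9, 0.767, 2.29 and 9.65 FPKM in control animals 1 to 6 and 5.78, 5.47, 17.2, 19.1, 0.365 and 17.1 FPKM in treated animals 1 to 6. High and low animals were found in each group, and the groups overlapped over nearly the whole range. The means were 8.37 ± 8.25 FPKM (SD, n = 6) and 10.8 ± 7.89 FPKM (SD, n = 6), with a log2 fold change of 0.52 ± 1.02 (SE; limma nominal p = 0.619, exact permutation p = 0.647). It was 0.018 without control animal 4 and 1.34 without treated animal 5, the ends of the range with 1 animal left out.

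The shares of LOC112580184 and GSTA1 in their summed fragments differed from animal to animal. LOC112580184 held between 1.84% (treated animal 4) and 96.9% (treated animal 5) of the summed fragments of both genes. It had more fragments than GSTA1 in all but 3 animals, which were control animal 1 and treated animals 4 and 6. Treated animal 4, with 4 fragments of LOC112580184, had 213 of GSTA1, whereas treated animal 5 had 125 and 4. Across the 12 animals the log2 levels of both genes had a Pearson r of -0.365 (permutation test, adjusted p = 0.783).

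Summed in each animal, the fragments of both genes varied less on the log2 scale than either gene did. A sum follows the larger gene where the other is low, so that a smaller SD on this scale is in part built in. Whether the genes offset each other was not tested. The sum was between 10.9 and 39.8 RPM, the usual unit of fragments scaled to the counted total of the library, a range of 3.66 times, and its within-group SD was 0.49 on the log2 scale. In the same unit, the control mean was 29.6 ± 8.38 (SD, n = 6) and the treated mean 20.5 ± 7.98 (SD, n = 6). The log2 fold change of the sum was -0.56 (two-sided exact permutation test, p = 0.0758). It was between -0.73 and -0.40 when each animal was left out in turn, with an exact p-value of 0.0152 without treated animal 3 and of 0.0390 without control animal 4, and above 0.05 without any other animal. This sum was chosen after seeing the data.

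**Figure D3:**
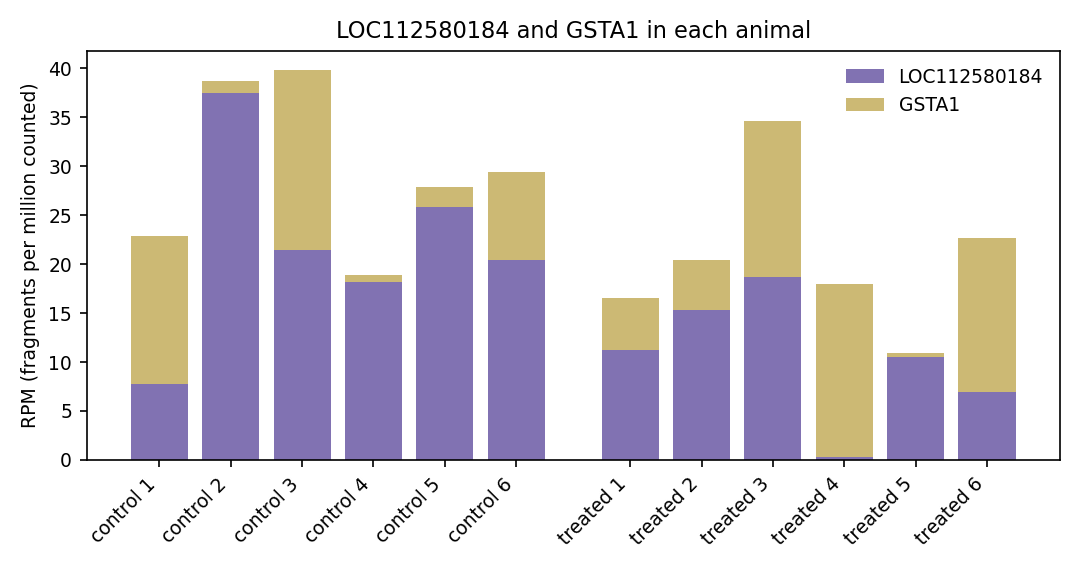
Stacked bars give the RPM of LOC112580184 (purple) and GSTA1 (yellow) in each of the 12 animals. The total lies between 10.9 and 39.8, while the portion of LOC112580184 ranges from 1.84% in treated animal 4 to 96.9% in treated animal 5.

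GSTM3, a mu class enzyme, was the most highly expressed of the cytosolic members. Control animals ranged from 41.2 to 58.0 FPKM with a median of 52.4 FPKM, and treated animals from 34.8 to 83.6 FPKM with a median of 56.7 FPKM. The treated animals thus lay on both sides of the control range. The means were 51.5 ± 5.53 FPKM and 56.3 ± 17.6 FPKM (SD, n = 6 each), and the log2 fold change was 0.08 ± 0.18 (SE; limma nominal p = 0.681, exact permutation p = 0.716). Without treated animal 4, which had the highest value, the log2 fold change was -0.05. Some of its reads may also have been dropped because they fit other mu class genes, which are close in sequence in mammals.

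GSTP1 was measured at 1.57, 2.85, 3.81, 3.11, 2.68 and 1.04 FPKM in control animals 1 to 6 and at 4.86, 3.09, 3.65, 4.27, 2.22 and 3.10 FPKM in treated animals 1 to 6. Of the treated animals, 5 were above the control median and 2 above every control animal. The mean was 2.51 ± 1.02 FPKM (control) and 3.53 ± 0.940 FPKM (treated; SD, n = 6 each). The log2 fold change was 0.57 ± 0.30 (SE; limma nominal p = 0.0816, exact permutation p = 0.117). With 1 animal left out, the log2 fold change was between 0.34 (without control animal 6) and 0.72 (without control animal 3). The nominal limma threshold was passed without control animal 3 and without treated animal 5 (0.70), and not in the other 10 such runs.

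GSTZ1, which as maleylacetoacetate isomerase acts in the breakdown of tyrosine, had 6.94 ± 0.978 FPKM (control) and 7.77 ± 0.944 FPKM (treated; SD, n = 6 each). The control animals lay between 6.21 and 8.85 FPKM with a median of 6.75 FPKM, and the treated animals between 6.10 and 8.72 FPKM with a median of 8.04 FPKM. Of the treated animals, 5 were above the control median, and the control range reached as high as the treated one only through control animal 6, since the other control animals did not exceed 6.88 FPKM. The log2 fold change was 0.16 ± 0.13 (SE; limma nominal p = 0.231, exact permutation p = 0.160). With 1 animal left out it was between 0.13 (without treated animal 6) and 0.24 (without control animal 6), and the nominal limma threshold was not passed in any such run.

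GSTK1, the kappa class enzyme of mitochondria and peroxisomes, was the steadiest member. It ranged from 36.1 to 49.4 FPKM in control animals and from 36.0 to 50.1 FPKM in treated animals, and the group means were 42.2 ± 5.60 FPKM and 42.8 ± 5.13 FPKM (SD, n = 6 each). The log2 fold change was 0.03 ± 0.11 (SE; limma nominal p = 0.829, exact permutation p = 0.827). Its 95% interval, from -0.22 to 0.27, was the narrowest among the members.

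The membrane-bound enzymes are MGST1, MGST2 and MGST3. MGST1, which is found in the endoplasmic reticulum and the outer mitochondrial membrane, was measured at 16.7, 30.7, 27.2, 37.0, 25.9 and 41.5 FPKM in control animals 1 to 6 and at 28.8, 19.97, 16.4, 11.9, 12.8 and 45.4 FPKM in treated animals 1 to 6. Of the treated animals, 3 were below every control animal, while treated animal 6 was the highest of all 12. The means were 29.8 ± 8.77 FPKM and 22.5 ± 12.8 FPKM (SD, n = 6 each), with a log2 fold change of -0.52 ± 0.31 (SE; limma nominal p = 0.122, exact permutation p = 0.177). Without treated animal 6 the log2 fold change was -0.75 and without control animal 1 it was -0.67, which both passed the nominal limma threshold and had adjusted p-values of 0.969 and 1.00. It was not passed in the other 10 such runs, in which the log2 fold change was as small as -0.36 (without treated animal 4).

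MGST2, which can conjugate leukotriene A4 with glutathione, ranged from 4.82 to 12.7 FPKM in control animals and from 4.86 to 10.5 FPKM in treated animals. All treated animals lay within the control range. The means were 8.32 ± 3.18 FPKM and 6.99 ± 2.22 FPKM (SD, n = 6 each), and the log2 fold change was -0.22 ± 0.27 (SE; limma nominal p = 0.433, exact permutation p = 0.463). With 1 animal left out it was between -0.35 (without control animal 4) and -0.075 (without control animal 5).

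MGST3 was measured at 522, 431, 711, 533, 458 and 798 FPKM in control animals 1 to 6 and at 423, 529, 673, 802, 705 and 814 FPKM in treated animals 1 to 6. The lowest and the highest of the 12 animals were both treated, and 5 of the 6 treated animals were above the control median of 527 FPKM. The means were 576 ± 146 FPKM and 658 ± 154 FPKM (SD, n = 6 each), with a log2 fold change of 0.19 ± 0.20 (SE; limma nominal p = 0.346, exact permutation p = 0.396). With 1 animal left out it was between 0.12 (without control animal 2) and 0.31 (without treated animal 1). With the smooth muscle and fibroblast score as a covariate, the log2 fold change was 0.47 ± 0.12 (SE) and passed the nominal limma threshold, with an adjusted p-value of 1.00.

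The level of MGST3 was therefore set beside the marker scores, each the mean log2 level of a marker list in an animal. Across 72 relations among the 9 members and 4 scores, none had a Pearson p-value below 0.05 after Benjamini-Hochberg adjustment (permutation tests with 100000 resamples). MGST3 had a Pearson r of -0.774 and a Spearman rho of -0.741 with the squamous epithelial score (permutation p = 0.00156 and 0.00778, adjusted 0.0950 and 0.280). The r was -0.904 within the control group, -0.795 within the treated group, and -0.665 without the 2 animals farthest from the median score. With the smooth muscle and fibroblast score, r was 0.666 and rho 0.692 over all animals (permutation p = 0.0155 and 0.0158, adjusted 0.278 and 0.379), with r at 0.840 within the control group, 0.969 within the treated group and 0.563 without the 2 farthest animals. MGST3 and GSTZ1 had an r of 0.824 and a rho of 0.811 (permutation p = 0.00264 and 0.00232, adjusted 0.0950 and 0.167), with r at 0.763 in the control group, 0.858 in the treated group and 0.725 without the 2 farthest animals. Without control animal 1 the relation of MGST3 with the epithelial score had an r of -0.811 (permutation test, adjusted p = 0.0367), and without treated animal 4 an r of -0.874 (permutation test, adjusted p = 0.0101). GSTZ1 had an r of -0.716 and a rho of -0.664 with the epithelial score (permutation p = 0.00581 and 0.0211, adjusted 0.139 and 0.380), with r at -0.792 in the control group, -0.897 in the treated group and -0.531 without the 2 farthest animals. Without control animal 1 it had an r of -0.821 (permutation test, adjusted p = 0.0367). The part of tissue composition in the levels of MGST3 and GSTZ1 was not tested.

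**Figure D4:**
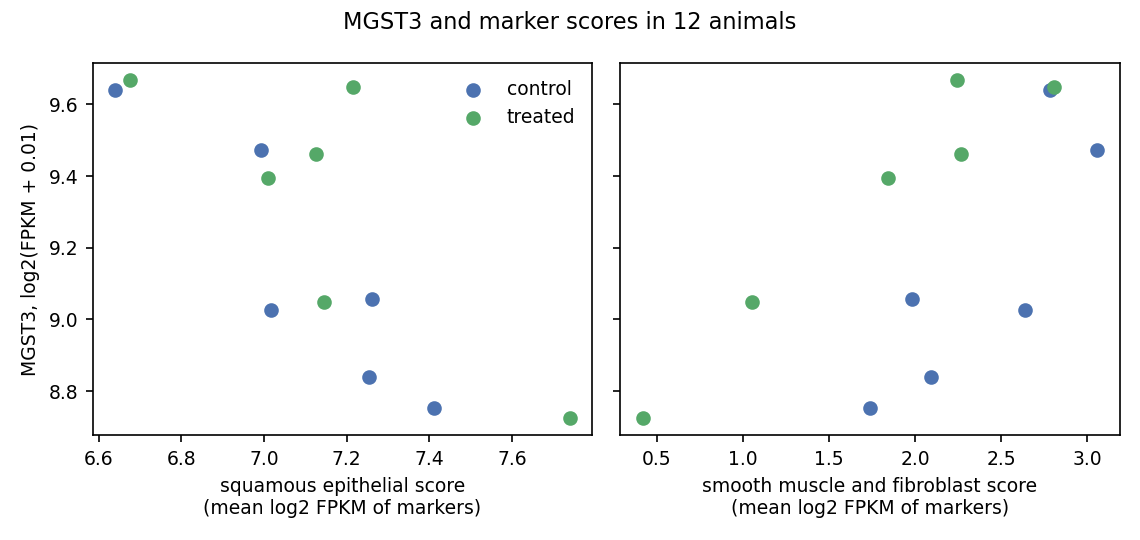
The plots set the log2 level of MGST3 against the squamous epithelial score (left) and the smooth muscle and fibroblast score (right), with 1 point for each control (blue) and treated (green) animal. MGST3 tends to be lower where the epithelial score is higher (r = -0.774) and higher where the smooth muscle and fibroblast score is higher (r = 0.666), and neither relation passed after adjustment over 72 relations.

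The genes most like MGST3 over the 12 animals, by Pearson r of log2 level, were HINT1 (0.960), UXT (0.957), LOC112578116 (0.945), ATP5ME (0.927) and LOC102413555 (0.914). Without the 2 animals farthest from the median of MGST3, these values were between 0.882 and 0.944. The genes most like LOC112580184 were LOC112583901 (0.860), BBOX1 (0.855), AMN1 (0.843), LOC102396663 (0.833) and LOC102408314 (0.829). All 5 were lowest in treated animal 4, and without the 2 farthest animals the values were 0.396, 0.520, 0.730, 0.247 and 0.138 in the same order. The likeness to LOC112580184 was thus much lower without these 2 animals for all but AMN1, whereas that to MGST3 was little changed. These genes are the highest of all those tested, so that their r is a description only.

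Among the family members outside this set, GSTA4, an alpha class enzyme for products of lipid peroxidation, had 9.27 ± 1.91 FPKM (control) and 10.4 ± 1.82 FPKM (treated; SD, n = 6 each), with a log2 fold change of 0.17 ± 0.16 (SE; limma nominal p = 0.294, exact permutation p = 0.299). It did not share the wide spread of LOC112580184 and GSTA1, with a within-group SD of 0.26 on the log2 scale. GSTCD, which carries a transferase-like domain, had 3.88 ± 0.781 FPKM and 3.48 ± 0.788 FPKM (SD, n = 6 each; log2 fold change -0.16 ± 0.18, SE, limma nominal p = 0.385, exact permutation p = 0.329). GSTO2, the second omega class gene, had 0 to 2 fragments per animal, and HPGDS, the glutathione-dependent prostaglandin D synthase, had 0 to 3 fragments, so that no fold change is given for either.

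The rest of glutathione metabolism was read from 8 lists of 106 genes, of which 86 had a row and 64 were tested. In these lists, 2 of 64 genes (3.125%) passed the nominal limma threshold, against 1.27% of all genes tested, and 0 passed after adjustment. The median log2 fold change over the 64 genes was -0.013, beside 0.0051 over all genes. The nominal calls were GSS in the list of synthesis and cysteine supply (1 of 8 genes higher, 0 lower) and LOC102399021 in that of other inducible detoxification genes (0 of 8 higher, 1 lower). LOC102399021 was listed by its LOC number after the study had reported it as lower in these same animals. The share of the lists is therefore not independent evidence.

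GSS encodes glutathione synthetase, which adds glycine in the last step of glutathione synthesis. Its level was 38.0 to 51.5 FPKM in the control group, with a median of 45.4 FPKM, and 46.4 to 57.0 FPKM in the treated group, with a median of 52.4 FPKM. The groups overlapped, since control animals 3, 5 and 6 were above the lowest treated animal. The means were 45.3 ± 4.42 FPKM and 52.6 ± 3.93 FPKM (SD, n = 6 each), and the log2 fold change was 0.22 ± 0.096 (SE; limma nominal p = 0.0390, adjusted p = 1.00, exact permutation p = 0.0173). The nominal call was lost with TMM scaling (log2 fold change 0.22 ± 0.11, SE), with median ratio scaling (0.21 ± 0.11, SE) and in 8 of the 12 runs with 1 animal left out, where the log2 fold change was as low as 0.17 without control animal 1.

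LOC102399021 is listed by the study as cytochrome P450 1A1, a classic target of the aryl hydrocarbon receptor, and was picked out there in the same animals. Control animals had 5.39 to 53.8 FPKM with a median of 19.1 FPKM, and treated animals had 1.86 to 22.3 FPKM. Of the treated animals, 4 were below every control animal, while treated animal 3 was above the control median. The means were 24.9 ± 19.2 FPKM and 7.48 ± 7.61 FPKM (SD, n = 6 each), with a log2 fold change of -1.81 ± 0.62 (SE; limma nominal p = 0.0115, adjusted p = 1.00, exact permutation p = 0.0325). The nominal p-value remained below 0.05 in each of the 12 runs with 1 animal left out, with log2 fold changes from -2.22 to -1.51.

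No other gene of the lists passed at the nominal level. The exporter gene ABCC4 had no row under its symbol. The LOC rows that the study names as this transporter, and reported as lower with green feed at its nominal threshold, were not in the lists. The rate-limiting step of glutathione synthesis is catalysed by the subunits GCLC (11.2 ± 3.16 and 10.7 ± 1.29 FPKM) and GCLM, which was the most highly expressed gene of its list with 60.4 ± 17.7 FPKM (control) and 66.9 ± 14.6 FPKM (treated; SD, n = 6 each). Among reductases and peroxidases, PRDX6, a peroxiredoxin that is reduced through glutathione with the help of the pi class transferase, had 4367 ± 958 and 3842 ± 457 FPKM (SD, n = 6 each). Its level thus stood far above that of the row named GSTP1, which did not exceed 4.86 FPKM in any animal. Pi class genes under a LOC number, if there are any, were not analysed here. The most highly expressed gene was ETHE1, a mitochondrial enzyme of sulfide oxidation, in the list of other glutathione-using enzymes (617 ± 94.8 and 653 ± 91.2 FPKM), and the transporter ABCC3 in that of conjugate export (88.6 ± 30.4 and 91.6 ± 28.2 FPKM).

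Among the regulators, NFE2L2 had the highest level, with 46.4 ± 10.2 FPKM (control) and 41.0 ± 7.06 FPKM (treated; SD, n = 6 each; limma nominal p = 0.309, exact permutation p = 0.340). The aryl hydrocarbon receptor gene AHR had 13.1 ± 2.73 and 13.3 ± 1.73 FPKM (limma nominal p = 0.811, exact permutation p = 0.820). The highest genes of the remaining lists were LAP3, a peptidase of glutathione breakdown (40.9 ± 4.64 and 39.3 ± 3.89 FPKM), PTGES2, a prostaglandin E synthase (22.4 ± 6.30 and 22.5 ± 6.65 FPKM), and TXNRD1, the cytosolic thioredoxin reductase (40.4 ± 6.84 and 39.3 ± 9.76 FPKM). By list, the median log2 fold change was -0.16 for synthesis and cysteine supply, -0.12 for breakdown, -0.0058 for reduction and peroxidases, 0.14 for other glutathione-using enzymes, 0.09 for conjugate export, -0.0098 for regulators, -0.05 for other inducible detoxification genes and -0.04 for other transferase and MAPEG genes.

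**Figure D5:**
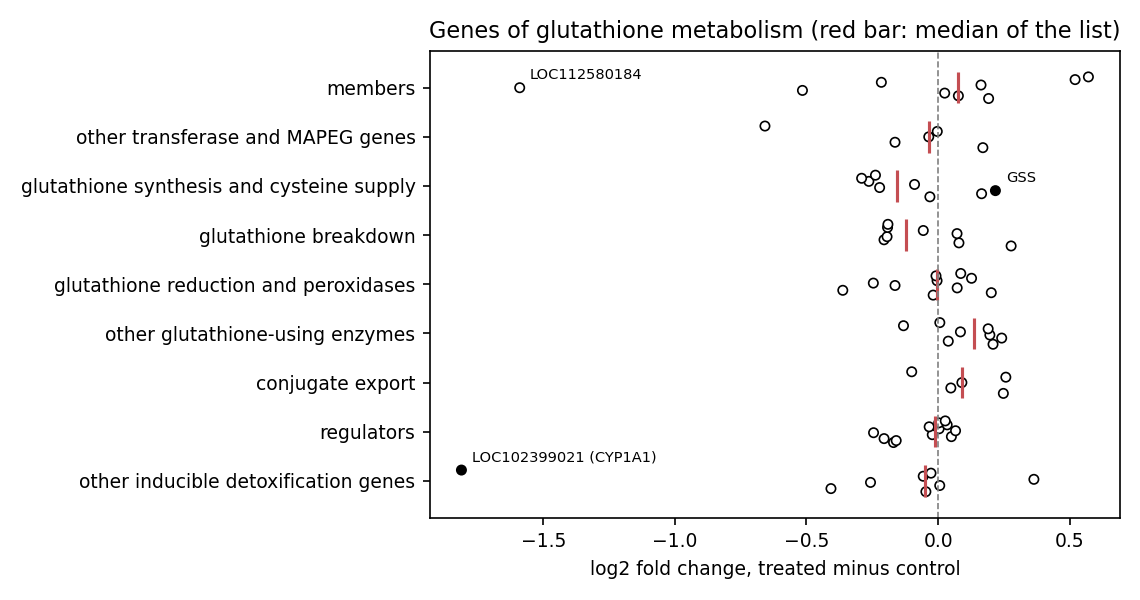
Each circle is the log2 fold change, treated minus control, of 1 tested gene in the members and the 8 lists, and the red bar is the median of the list. Filled circles passed the nominal limma threshold of 0.05, namely GSS (0.22) and LOC102399021 (-1.81), and the medians lie between -0.16 and 0.14.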

How the data were processed

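The deposited values are FPKM per gene. The authors made them from stranded libraries, 1 per animal, using Trimmomatic 0.39, alignment to UOA_WB_1 (STAR 2.5.2b) and strand-specific counting of well-mapped reads (featureCounts 2.0.0). The origin of the gene lengths is not given in the sources used here. Of 16 columns, 12 were matched to animals by label and 4 were not used. FPKM were whole multiples of 1 read, within 0.001, for all 22972 genes above 0, so fragments were worked out.

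Genes with at least 40 scaled fragments in 1 animal or more were tested with limma 3.58.1 (R 4.3.3; lmFit, eBayes with trend) on log2(FPKM + 0.01). Permutation tests used Python 3.11.15 with scipy 1.17.1. The limma fit was tested on simulated data with the same spread between animals for every gene. That simulation did not cover the wider spread of LOC112580184 and GSTA1, and the permutation tests were not simulated. The nominal p threshold of 0.05 is the one the study used with its count model. Its other approach, a NOISeq probability, was not run here.

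The members and lists were chosen with earlier results of these data known. Named genes were all members, other transferase genes above 0, nominally called or highest genes of each list, and the 5 genes most like LOC112580184 and MGST3. CNDP2, PTGR1, GCLC and AHR were named after their values were seen. Alternatives were pseudocounts, filters, TMM and median ratio scaling, robust limma, voom, exact permutation, replicate block, marker scores as covariates, and each animal left out. Intervals of fragment counts cover counting error only. Sequences and positions are not given, as no sequence of this build was used.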

Additional observations from a re-analysis of the deposited data

Results flagged for a closer look

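Within a group of 6 animals, a value was singled out when its gap to the nearest animal took a larger share of the range of the group than Dixon's 95% limit for 6 values. Chance flags about 1 in 20 groups, and 4 of the 18 groups examined, which are 9 genes in 2 feeding groups, held such a value. The share of the range was 0.752 for LOC112580184 in treated animal 4, the lowest of its group with 0.357 FPKM. For GSTA1 it was 0.683 in treated animal 5, again the lowest with 0.365 FPKM. For GSTM3 it was 0.661 in control animal 1, the lowest control animal with 41.2 FPKM. For GSTZ1 it was 0.711 in control animal 6, the highest control animal with 8.85 FPKM and also the animal with the fewest counted fragments (10531541). These gaps were taken on the log2 scale, and their causes were not tested.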

How the results depend on the processing

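No member and no gene of the lists had an adjusted limma p-value below 0.05 under any alternative. At the nominal level, the count of members was 1 (LOC112580184) with a pseudocount of 1 and with voom and 2 (with MGST3) with the smooth muscle and fibroblast covariate, and it was between 0 and 2 with each animal left out. The count in the 8 lists was 1 with TMM and with median ratio scaling, 4 with that covariate (with PTGR1 at 0.40 and CNDP2 at -0.33), and 1 to 3 with each animal left out. The counts over all genes, 102 higher and 60 lower, were 271 and 291 with no filter, 168 and 133 with at least 0.1 FPKM in 6 animals, and 197 and 131 with that covariate. The exact permutation test gave 224 genes in both directions together, of which 101 were lower. Leaving out each animal gave 83 to 205 higher and 48 to 126 lower. Of the neighbours in the order of levels, 0 passed within the control or the treated group and 2 to 4 with each animal left out. By the mean of the group medians 5 of 8 passed, and GSTA1 stood above GSTZ1 and MGST2. Within the treated group GSTZ1 stood above LOC112580184. MGST2 stood above GSTZ1 within the control group and in some runs with 1 animal left out. With each animal left out, 0 to 2 relations passed after adjustment (2 without control animal 1, 1 without treated animal 4). With each animal left out, the log2 fold change of GSTM3 was between -0.049 and 0.20, turning without treated animal 4, and that of GSTK1 between -0.021 and 0.074, turning without control animal 6 or treated animal 3. The causes were not tested.

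The replicate numbers stand for different animals in both groups and come from the sample descriptions. The sample titles number the animals otherwise, and no pair with the same replicate number shares a number in the titles. The deviations of same-numbered animals had correlations between -0.013 and 0.41, of which 4 of 6 were over 0.1. Their mean was 0.21, against -0.039 for animals with different numbers, and 7 of 12 animals matched best with their own number, which is a hint of a shared factor from the data and not from the design. Since the labels name no such factor and not every pair was over 0.1, the fit without the block was kept. With the replicate block, 200 genes were higher and 126 lower, and 1 member, LOC112580184, passed the nominal limma threshold (log2 fold change -1.59 ± 0.66 SE).

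The depth limits GSTP1, LOC112580184 and GSTA1 most, with as few as 10, 4 and 4 fragments in an animal.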
